A study of Mus musculus with 12 samples.

Results

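Gria1, Gria2, Gria3 and Gria4 encode the subunits of AMPA receptors, Grik1, Grik2, Grik3, Grik4 and Grik5 encode those of kainate receptors, and Adarb1 encodes the RNA-editing enzyme ADAR2. These 10 genes were taken by symbol from a table of 25965 gene entries, and each matched a single entry that overlapped no other. Lower motor neurons were collected from lumbar cord sections by laser capture, at 5 months of age, and their RNA was sequenced. The C57BL/6 mice carried a knock-in of the Q331K change in TDP-43, the RNA-binding protein encoded by Tardbp, on 0 alleles (wild type), 1 allele (heterozygote) or 2 alleles (homozygote). Each genotype had 4 libraries, 12 in all. No transgene or other treatment is named in the labels, and they leave unsaid if libraries were separate animals, so p-values measure the spread between libraries, which may be technical.

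AMPA and kainate receptors are tetrameric channels opened by glutamate, and AMPA receptors carry most fast excitatory input to motor neurons. The GluA2 subunit, encoded by Gria2, makes an AMPA receptor nearly impermeable to calcium once ADAR2 has edited an adenosine in its transcript, which turns a glutamine codon into an arginine codon at the site called Q/R. Spinal motor neurons are known for editing this site almost completely, and loss of ADAR2 and of this editing has been described in motor neurons of people with sporadic amyotrophic lateral sclerosis (ALS), a disease in which TDP-43 mutations occur. Among kainate subunits, those of Grik1 and Grik2 carry a Q/R site of their own.

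The stretch around the Q/R codon is shown because it holds the base that ADAR2 edits in Gria2 and lets its relatives be compared there. Each line gives 36 bases of the coding strand of genome build GRCm38, read from GENCODE M21 transcripts, 5′ to 3′, with the glutamine codon in capitals. The base that ADAR2 edits in Gria2, Grik1 and Grik2 is the A in the middle of that codon.
Gria2: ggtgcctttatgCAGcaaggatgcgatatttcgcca
Gria1: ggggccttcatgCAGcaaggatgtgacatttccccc
Gria3: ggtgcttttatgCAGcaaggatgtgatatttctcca
Gria4: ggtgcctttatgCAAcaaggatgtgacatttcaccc
Grik1: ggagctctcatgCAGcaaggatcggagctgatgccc
Grik2: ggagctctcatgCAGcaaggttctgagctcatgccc

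The Gria2 stretch lies at chr3:80706890-80706925 on the minus strand, in exon 11 of 16, and its edited base is at position 80706912 in codon 607 of 883. Gria3 shared 33 of the 36 bases with Gria2, Gria4 shared 31 and Gria1 shared 30. Counting from 1 at the 5′ end of the stretch, Gria4 differed inside the codon by G15A, which still encodes glutamine. Grik1 shared 24 bases with Gria2 and Grik2 shared 23. Their codons lie at chr16:87940542-87940544 and chr10:49244329-49244331, both on the minus strand, and both stretches run across an exon junction. The deposited values count reads per gene and do not record the base read at these sites, so the amount of transcript is reported here and the level of editing was not measured.

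Each library held 60886825 to 83504446 counts, and 16338 genes passed a filter on low counts, all 10 of these genes included. Levels are given in CPM, a gene's counts over the TMM-scaled library total, in the usual unit. Tardbp stood at 73.7 ± 7.68 CPM in wild type, 73.0 ± 5.48 among heterozygotes and 75.6 ± 2.17 among homozygotes (mean ± SD, n = 4), but a count per gene cannot show which allele was read, so it does not check the genotypes. Of 10 motor neuron markers 9 were in the table, and all 9 were detected, with Chat, the enzyme that makes acetylcholine, at 63.5 to 353 CPM. Markers of interneurons and glia were present as well. Replicate 1 of the heterozygotes and replicate 1 of the homozygotes were unlike the other 10 libraries. The vesicular glutamate transporter gene Slc17a6 was at 0.563 and 4.52 CPM in them against 159.8 to 323 elsewhere, and the glycine transporter gene Slc6a5 was at 1.35 and 0 CPM against 123 to 293. The sum of the 9 motor neuron markers was 12192 and 12593 CPM in them against 4470 to 8111. Results without these libraries therefore leave out the captures richest in motor neuron transcripts, and the other 10 are not a purer reference. In bulk samples such as these, fewer cells of a type and less RNA per cell cannot be told apart.

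Compared per kilobase of exon, Gria4, Gria3 and Gria2 were the most abundant of the set in these motor neuron samples. Over all 12 libraries Gria4 stood at 27.8 ± 3.00 CPM per kilobase, Gria3 at 22.6 ± 4.08 and Gria2 at 20.9 ± 2.29 (mean ± SD, n = 12). Adarb1 followed at 10.1 ± 1.495 CPM per kilobase, and every library had less of it than of Gria2, with ranges that did not overlap. Grik5 was at 7.33 ± 1.91 CPM per kilobase, Grik2 at 3.14 ± 0.746, Gria1 at 2.31 ± 0.957 and Grik4 at 2.23 ± 0.465. The lowest were Grik1 at 1.24 ± 0.821 and Grik3 at 0.507 ± 0.326 CPM per kilobase.

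Several neighbours in this order could not be separated. Gria3 was above Gria2 in 6 of 12 libraries, and Gria1 was above Grik4 in 7 of 12, so neither pair differed beyond its spread. Gria4 was above Gria3 in 12 of 12 libraries, although their ranges over libraries overlapped. Exon lengths were those of GENCODE M21 within each deposited gene interval. Gene positions are those of the deposited table in GRCm38. For Gria2, Grik1 and Grik2 the deposited interval was shorter than the GENCODE gene, so their place in the order depends on it.

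**Figure D1:**
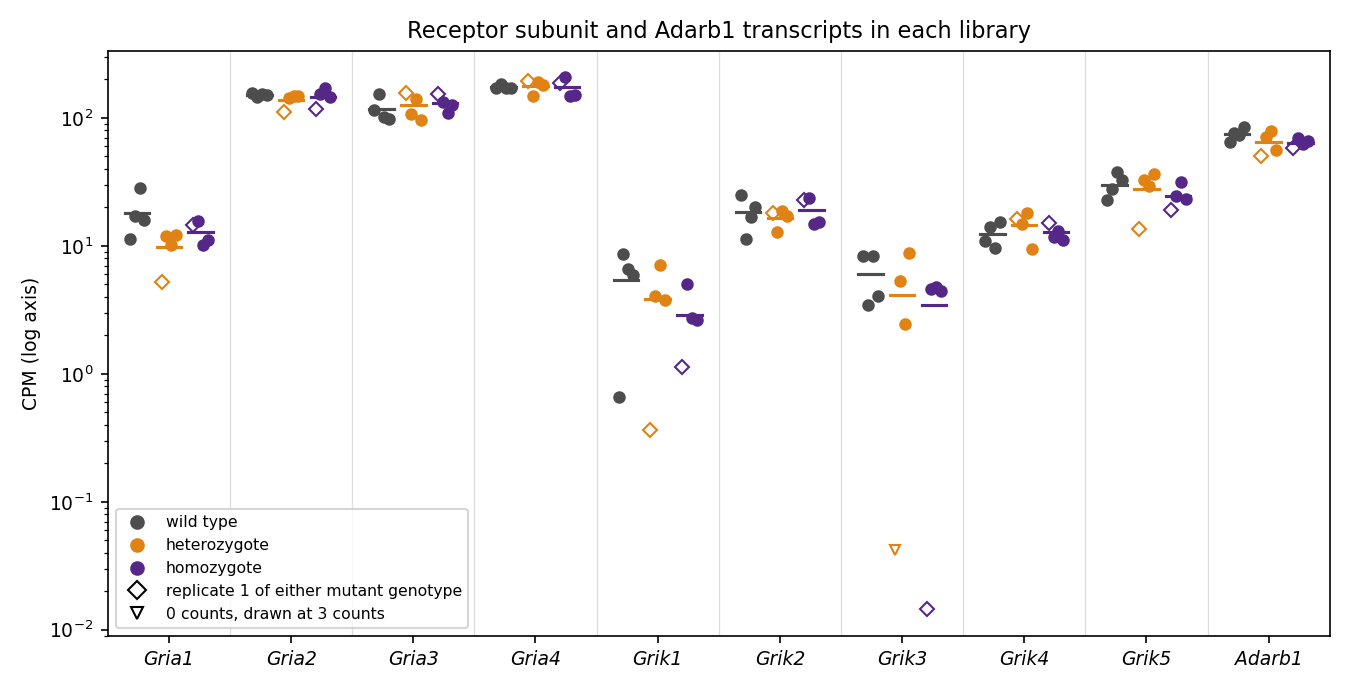
Level of each gene in each of the 12 libraries, in CPM on a log axis, with wild type, heterozygote and homozygote libraries side by side. Diamonds are replicate 1 of the heterozygotes and of the homozygotes, and the triangle is a library with 0 counts of Grik3, drawn at the level of 3 counts. The genotypes overlap for every gene, and Grik3 is at 0 and 0.0145 CPM in those replicate 1 libraries against 2.46 to 8.77 CPM elsewhere.

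None of the 10 genes passed an adjusted p of 0.05 in any of the 3 comparisons between genotypes (edgeR quasi-likelihood test, Benjamini-Hochberg adjustment over 16338 genes). The share of all genes that passed was 0.00612% between homozygotes and wild type, 0% between heterozygotes and wild type and 0% between homozygotes and heterozygotes. At an unadjusted p below 0.05 the members numbered 0 in homozygotes against wild type, where 4.92% of all genes passed, and 1 in heterozygotes against wild type, where 4.12% did. The count was 0 of 10 in homozygotes against heterozygotes, where 2.99% of all genes passed. DESeq2 also called none of the 10 in these comparisons, while calling 13, 13 and 8 genes in the whole table.

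The libraries of the genotypes overlapped for each of the 10 genes in every comparison. Across all genes, 3.41%, 3.24% and 2.03% did not overlap in the 3 comparisons, in the order homozygote against wild type, heterozygote against wild type and homozygote against heterozygote. The estimated difference was below 0 for 7 of the 10 genes in homozygotes against wild type, with a median of -0.14 on the log2 scale. It was below 0 for 7 of 10 in heterozygotes against wild type, also with a median of -0.14, and these comparisons share their wild type libraries. The median over all genes was 0.00 in each comparison. Of all genes, 50.6% had an estimate below 0 in homozygotes against wild type and 50.3% in heterozygotes against wild type.

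**Figure D2:**
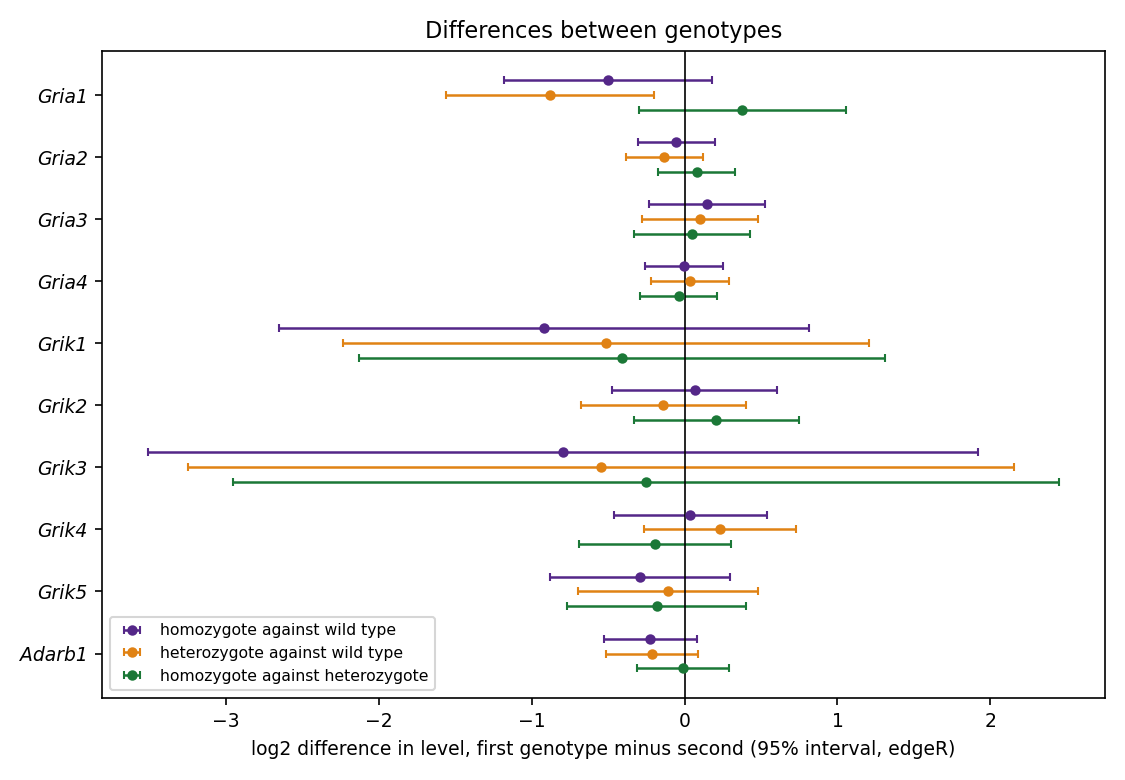
Estimated log2 difference in level for each gene, first genotype minus second, with its 95% interval from edgeR, for the 3 comparisons. Gria2 and Gria4 have the narrowest intervals and Grik1 and Grik3 the widest, and the interval that leaves out 0 is that of Gria1 in heterozygotes against wild type, from -1.56 to -0.20.

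Gria2 (ENSMUSG00000033981, chr3:80684936-80802791, minus strand), the subunit that limits calcium entry once its transcript is edited, was almost level in wild type, at 155, 147, 154 and 152 CPM in replicates 1 to 4. Heterozygotes had 112, 144, 149 and 149 CPM, and homozygotes had 118, 153, 170.3 and 144 CPM. The values of 112 and 118 CPM belong to the libraries with few interneuron transcripts, and the remaining mutant libraries overlapped with wild type. The homozygote level was 0.96 times that of wild type (95% interval 0.81 to 1.15; edgeR adjusted p = 1). Heterozygotes stood at 0.91 times wild type (0.77 to 1.09; edgeR adjusted p = 0.999). Without those 2 libraries homozygotes differed from wild type by 0.04 on the log2 scale (95% interval -0.11 to 0.20), against -0.05 (-0.30 to 0.20) with them.

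Over the 10 remaining libraries Gria2 had a coefficient of variation of 5.01%. Of 2155 genes with a mean of at least 100 CPM, 7.01% varied less, and the median gene varied by 8.998%. Gria4 varied by 11.3% and Gria3 by 16.3% over the same libraries. With all 12 libraries included, Gria2 varied by 11.0%, and 53.3% of these genes varied less.

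Gria4 (ENSMUSG00000025892, chr9:4417899-4796234, minus strand), which encodes the GluA4 subunit of fast AMPA receptors, was the most abundant of the 4 per kilobase. It stood at 171, 182, 169.8 and 171 CPM in wild type, 193, 147, 189.6 and 182 among heterozygotes and 186, 207, 149 and 150.2 among homozygotes. The mutant libraries spread to both sides of the narrow wild type range. The homozygote level was 1.00 times wild type (95% interval 0.84 to 1.19) and the heterozygote level 1.02 times (0.86 to 1.22).

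Gria3 (ENSMUSG00000001986, chrX:41400854-41678601, plus strand), which encodes GluA3, was at 116, 153, 102 and 98.7 CPM in wild type. Heterozygotes had 157, 107, 141 and 97.0 CPM, and homozygotes had 152, 133, 109 and 127 CPM. The 3 genotypes covered nearly the same range. The homozygote level was 1.11 times wild type (95% interval 0.85 to 1.44) and the heterozygote level 1.07 times (0.82 to 1.39).

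Gria1 (ENSMUSG00000020524, chr11:57011387-57330244, plus strand), which encodes GluA1, a subunit much studied in activity-dependent synaptic strengthening, was the scarcest AMPA subunit. Wild type libraries had 11.3, 17.1, 28.3 and 16.0 CPM, heterozygotes 5.24, 11.95, 10.1 and 12.2 and homozygotes 14.6, 15.6, 10.1 and 11.0. Wild type replicate 1 lay among the mutant values, and wild type replicate 3 was far above all other libraries. That library also had the highest summed oligodendrocyte markers, at 2821 CPM, and astrocyte markers, at 1539 CPM. Whether this bears on Gria1 was not tested. The heterozygote level was 0.54 times wild type (95% interval 0.34 to 0.87), with an unadjusted p of 0.0156 and an adjusted p of 0.999 in edgeR. Homozygotes stood at 0.71 times wild type (0.44 to 1.13), with an unadjusted p of 0.135 and an adjusted p of 0.99 in edgeR. Without wild type replicate 3 the log2 difference between heterozygotes and wild type was -0.58 instead of -0.88 (unadjusted p = 0.0785, edgeR adjusted p = 1), and between homozygotes and wild type -0.20 instead of -0.50. Without the 2 libraries poor in interneuron transcripts these differences were -0.66 and -0.56, with edgeR adjusted p of 0.931 and 0.978.

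Neither the make-up of receptors nor calcium entry was measured, and the samples also held RNA of interneurons and glia. The share of Gria2 among all AMPA receptor counts is a share of transcripts, computed per library. In wild type it was 34.2%, 29.4%, 33.9% and 34.7%. In heterozygotes it was 23.9%, 35.0%, 30.4% and 33.9%, and in homozygotes 25.0%, 30.1%, 38.9% and 33.4%. The lowest shares, 23.9% and 25.0%, were again those of heterozygote replicate 1 and homozygote replicate 1, and the highest, 38.9%, was in homozygote replicate 3. These shares rest on 27453 to 36835 AMPA receptor counts per library, and the widest 95% Wilson interval of a share was 1.15 percentage points, which covers counting error only.

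The mean share was 33.0 ± 2.44% in wild type, 30.8 ± 4.99% among heterozygotes and 31.8 ± 5.81% among homozygotes (SD, n = 4). The difference of homozygotes from wild type was -1.205 points, with p = 0.714 in a two-sided exact permutation test. Heterozygotes differed from wild type by -2.23 points (exact permutation p = 0.629) and homozygotes from heterozygotes by 1.02 points (exact permutation p = 0.8286). Adjusted over the 3 pairs, each exact permutation p was 0.8286. The smallest p that 4 libraries against 4 allow is 0.0286. Without the 2 libraries poor in interneuron transcripts, homozygotes were 1.07 points and heterozygotes 0.07 points above wild type, so both differences changed sign.

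**Figure D3:**
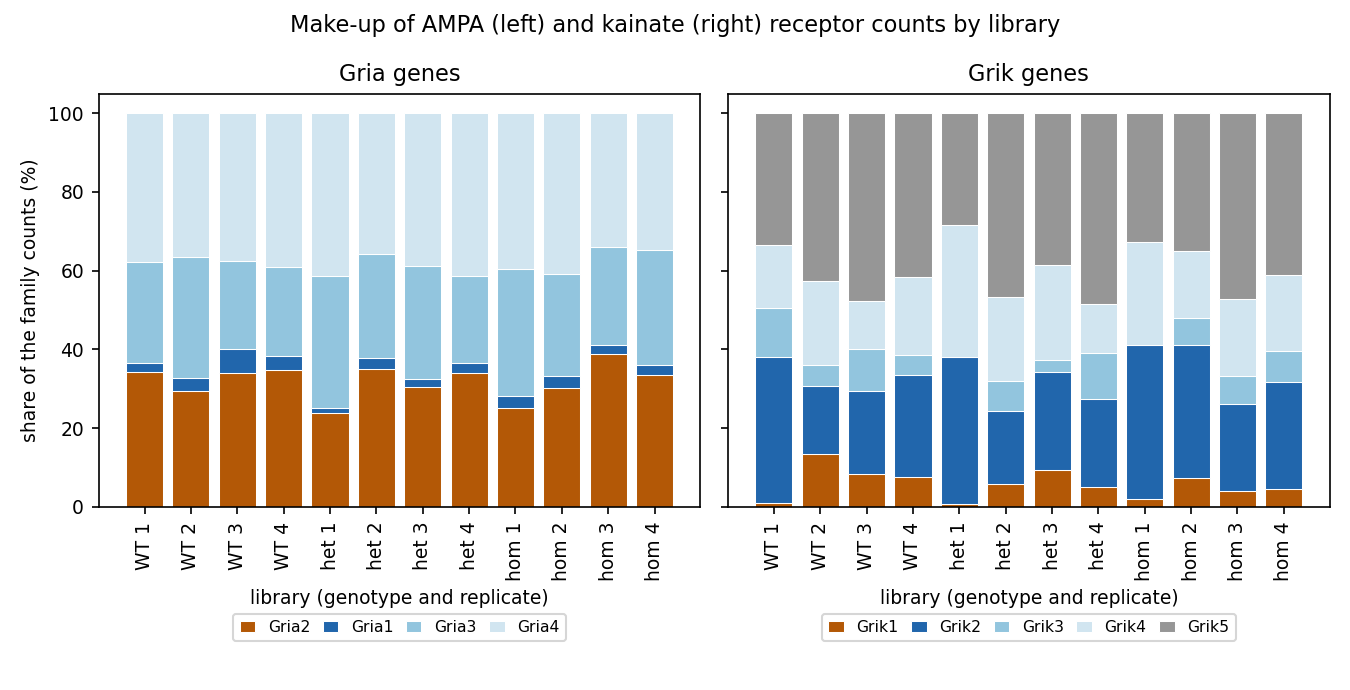
Share of each subunit gene in the AMPA receptor counts (left) and the kainate receptor counts (right) of each library, in percent of the family total, with WT for wild type, het for heterozygote and hom for homozygote. Gria2 runs from 23.9% in het 1 to 38.9% in hom 3, and Grik3 is at 0% in het 1 and 0.0248% in hom 1.

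Summed over the 4 AMPA subunits, the level was 461 ± 26.4 CPM in wild type, 452 ± 34.4 among heterozygotes and 462 ± 35.1 among homozygotes (SD, n = 4). Over all 12 libraries Gria4 made up 38.1% of AMPA receptor counts, Gria2 31.9%, Gria3 27.0% and Gria1 2.98%. Corrected for exon length, Gria2 held 29.7 ± 2.39% of AMPA receptor transcripts in wild type, 27.6 ± 4.72% among heterozygotes and 28.5 ± 5.47% among homozygotes.

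Adarb1 (ENSMUSG00000020262, chr10:77290726-77418270, minus strand), whose product ADAR2 edits the Gria2 transcript, was at 64.7, 75.6, 72.9 and 85.0 CPM in wild type. Heterozygotes had 50.7, 70.4, 79.3 and 56.4 CPM, and homozygotes had 57.9, 69.9, 62.2 and 65.4 CPM. The lowest value was in heterozygote replicate 1, and each mutant genotype had libraries within the wild type range. The homozygote level was 0.86 times wild type (95% interval 0.69 to 1.06), with an unadjusted p of 0.133 and an adjusted p of 0.99 in edgeR. The heterozygote level was also 0.86 times wild type (0.70 to 1.06; edgeR adjusted p = 0.999). Each interval includes both equal levels and a reduction to 0.69 or 0.70 of wild type. Without the 2 libraries poor in interneuron transcripts the log2 differences were -0.18 in homozygotes and -0.11 in heterozygotes, against -0.22 in both with them. Without heterozygote replicate 3 the log2 difference of heterozygotes was -0.33, with an unadjusted p of 0.0322 and an adjusted p of 0.999 in edgeR.

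Set against its substrate, Adarb1 had 49.2 ± 6.07 counts per 100 counts of Gria2 in wild type. The ratio was 46.4 ± 6.55 among heterozygotes and 44.2 ± 5.37 among homozygotes (SD, n = 4). By library it ran from 41.7 to 56.0 in wild type, from 37.8 to 53.3 in heterozygotes and from 36.5 to 49.1 among homozygotes, so the genotypes overlapped. The lowest ratio was in homozygote replicate 3, where Gria2 was highest.

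Grik5 (ENSMUSG00000003378, chr7:25009853-25072369, minus strand), which encodes a kainate subunit that needs another kainate subunit to form a channel, was the most abundant of its family. Wild type libraries had 22.7, 27.8, 37.6 and 32.4 CPM, heterozygotes 13.6, 32.5, 29.2 and 36.5 and homozygotes 19.2, 24.3, 31.7 and 23.3. The lowest values of both mutant genotypes, 13.6 and 19.2 CPM, were in replicate 1. The homozygote level was 0.82 times wild type (95% interval 0.54 to 1.23; edgeR adjusted p = 0.998) and the heterozygote level 0.93 times (0.62 to 1.39; edgeR adjusted p = 0.999). Without the 2 libraries the log2 difference of heterozygotes from wild type turned from -0.11 to 0.12.

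Grik4 (ENSMUSG00000032017, chr9:42518135-42944493, minus strand), the other subunit of this high-affinity kind, was at 10.9, 13.9, 9.54 and 15.5 CPM in wild type, 16.2, 14.8, 18.1 and 9.42 among heterozygotes and 15.2, 11.8, 13.2 and 11.0 among homozygotes. Its highest and lowest values were both in heterozygotes. Homozygotes were at 1.03 times wild type (95% interval 0.73 to 1.45) and heterozygotes at 1.17 times (0.83 to 1.66).

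Grik2 (ENSMUSG00000056073, chr10:49099460-49788766, minus strand), which encodes a kainate subunit with its own edited Q/R site, stood at 25.1, 11.3, 16.7 and 20.2 CPM in wild type. Heterozygotes had 17.9, 12.8, 18.7 and 17.0 CPM, and homozygotes had 22.9, 23.5, 14.9 and 15.4 CPM. Wild type held both the highest and the lowest library. The homozygote level was 1.05 times wild type (95% interval 0.72 to 1.52) and the heterozygote level 0.91 times (0.62 to 1.32).

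Grik1 (ENSMUSG00000022935, chr16:87896196-88056176, minus strand), the further kainate subunit with a Q/R site, was low and uneven. Wild type libraries had 0.661, 8.69, 6.55 and 5.88 CPM, heterozygotes 0.366, 4.08, 7.07 and 3.74 and homozygotes 1.13, 5.03, 2.71 and 2.62. Replicate 1 was the lowest library of each genotype, at 50 counts in wild type, 26 among heterozygotes and 78 among homozygotes. Homozygotes were at 0.53 times wild type, with a 95% interval of 0.16 to 1.75 that spans both a large decrease and an increase (edgeR adjusted p = 0.997). Heterozygotes stood at 0.70 times wild type (0.21 to 2.31; edgeR adjusted p = 0.999). Why Grik1 was low in replicate 1 of each genotype was not tested.

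Grik3 (ENSMUSG00000001985, chr4:125490700-125714173, plus strand), a kainate subunit of low glutamate sensitivity, was at 8.36, 3.46, 8.30 and 4.03 CPM in wild type. Heterozygotes had 0, 5.30, 2.46 and 8.77 CPM, and homozygotes had 0.0145, 4.64, 4.79 and 4.46 CPM. The library at 0 CPM had 0 counts and the library at 0.0145 CPM had 1 count, and both were replicate 1. The difference of homozygotes from wild type was -0.80 on the log2 scale with a 95% interval of -3.51 to 1.92. Without the 2 libraries poor in interneuron transcripts it was -0.38 with an interval of -1.37 to 0.61 (edgeR adjusted p = 0.999).

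Kainate receptor counts as a whole came to 72.4 ± 6.97 CPM in wild type, 67.1 ± 13.02 among heterozygotes and 62.9 ± 6.21 among homozygotes (SD, n = 4). Grik5 made up 40.3% of them over 12 libraries, Grik2 27.3%, Grik4 20.2%, Grik3 6.46% and Grik1 5.75%. The lowest total, 48.1 CPM, was in heterozygote replicate 1. The ranges of the 3 genotypes overlapped.

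Between homozygotes and heterozygotes the 10 estimates ran from -0.41 for Grik1 to 0.38 for Gria1 on the log2 scale. Gria2 was at 1.06 times the heterozygote level in homozygotes (95% interval 0.89 to 1.26) and Adarb1 at 0.99 times (0.81 to 1.23). Every adjusted p in this comparison was 1 in edgeR. For none of the 10 genes was the difference between the mutant genotypes larger than the spread between libraries.

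The genes differed widely in how far libraries of a genotype varied. The biological coefficient of variation, which edgeR estimates after removing counting error, was 14.0% for Gria2, 14.1% for Gria4, 15.8% for Adarb1 and 18.9% for Gria3. Grik4 was at 25.8%, Grik2 at 26.9%, Grik5 at 28.3% and Gria1 at 32.9%, around the median of 29.7% over all genes tested. Grik1 at 76.7% and Grik3 at 121% were above it, and for them only large differences could have been detected with all 12 libraries. These values depend in part on the 2 libraries poor in interneuron transcripts. Without them the SE of the log2 difference of homozygotes from wild type fell from 1.25 to 0.452 for Grik3. It fell from 0.801 to 0.65 for Grik1 and from 0.116 to 0.0706 for Gria2, and it rose for Gria4, Grik2 and Grik4.

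The libraries poor in interneuron transcripts were set against the other 10 for each gene. Gria2 was below the range of the other 10 in both, at 112 and 118 CPM against 144 to 170.3. Grik3 was below in both, at 0 and 0.0145 CPM against 2.46 to 8.77, and Grik5 was below in both, at 13.6 and 19.2 CPM against 22.7 to 37.6. Over all genes tested, 10.6% were below the range in both libraries and 10.3% above it in both, against 3 and 0 of these 10 genes.

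Gria1, Grik1 and Adarb1 were below the range in heterozygote replicate 1 only, and Gria3 was above it there at 157 CPM against a highest value of 153. Gria4, Grik2 and Grik4 lay within the range in both libraries. In the same libraries Slc32a1, the vesicular transporter gene of inhibitory neurons, was at 0.845 and 0.638 CPM against 34.2 to 100.5. Chodl, known from fast motor neurons, had 1489 and 1459 CPM against 191 to 574, and Aldoc, an astrocyte gene, was at 467 and 511 against 791 to 1281. The summed level of 4 excitatory interneuron markers was 0.563 and 4.52 CPM against 168.7 to 328, and that of 6 inhibitory interneuron markers was 3.59 and 0.870 against 172.7 to 434. For 9 motor neuron markers the sum was 12192 and 12593 CPM against 4470 to 8111, so these libraries were also the highest in motor neuron transcripts. Chat was at 353 and 329 CPM in them against 63.5 to 241. The part of these marker differences in the levels of Gria2, Grik3 and Grik5 was not tested.

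**Figure D4:**
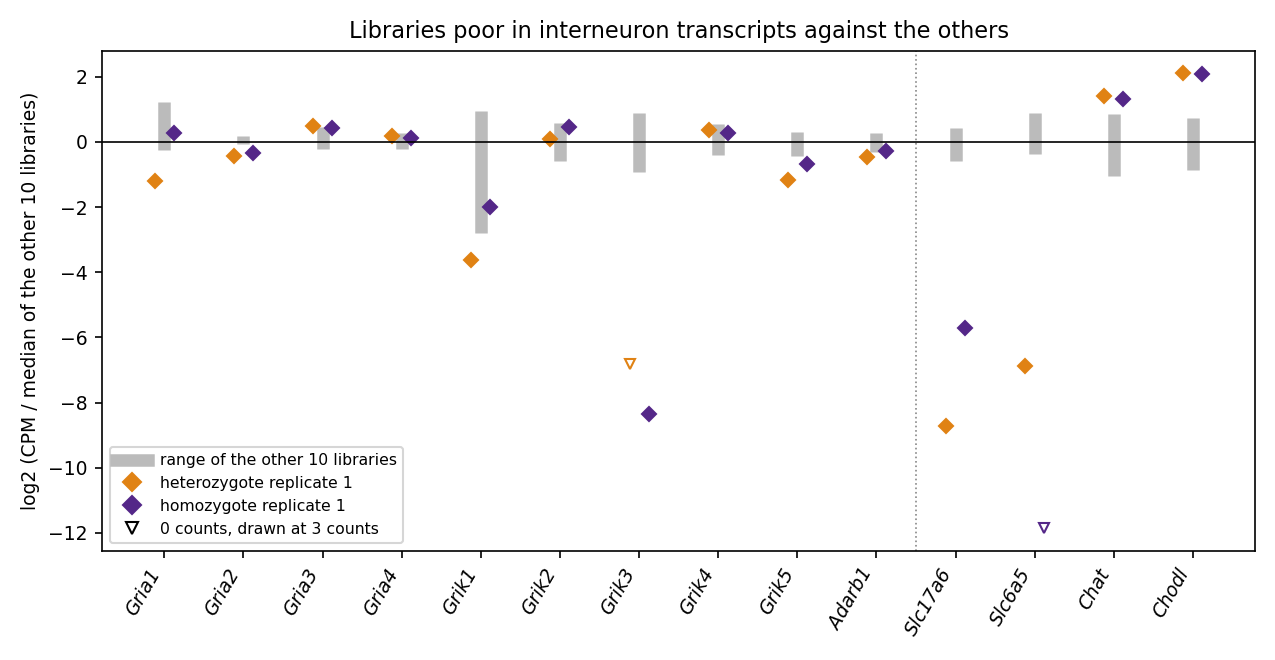
Level of each gene and of reference genes in heterozygote replicate 1 and homozygote replicate 1 (diamonds), as log2 of CPM over the median of the other 10 libraries, with the range of those 10 as grey bars and a triangle where a library had 0 counts and was drawn at 3 counts. Gria2, Grik3 and Grik5 lie below the bar in both libraries, as do the interneuron genes Slc17a6 and Slc6a5. Gria4, Grik2 and Grik4 lie within it, and the motor neuron genes Chat and Chodl lie above it in both.

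The wider machinery of these receptors was examined through 6 lists that together held 58 tested genes. None of the 58 was called in any comparison, and 6 had an unadjusted p below 0.05 in each comparison (10.3% of 58). The corresponding shares of all genes were 4.92%, 4.12% and 2.99%. Wild type libraries serve in 2 of the comparisons, so these counts are not independent of each other. The lists were chosen with earlier results of these data known, so a share above that of all genes is no test of them.

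Of 16 tested auxiliary subunits and biogenesis factors of AMPA receptors, 9 had an estimate above 0 and 7 below in homozygotes against wild type, with a median of 0.03. Prrt1, which encodes a protein that binds AMPA receptors, was at 15.3, 15.7, 17.4 and 17.1 CPM in wild type, 18.8, 19.4, 21.1 and 21.3 among heterozygotes and 21.8, 21.6, 19.0 and 19.3 among homozygotes. Both mutant genotypes lay above every wild type library. The log2 difference was 0.32 in homozygotes (SE 0.13, edgeR adjusted p = 0.99) and 0.30 in heterozygotes (SE 0.13, edgeR adjusted p = 0.999). Cnih2, an AMPA receptor export factor, was at 11.96 ± 3.81 CPM in wild type and 18.3 ± 3.88 in homozygotes (SD, n = 4), without overlap. It overlaps Yif1a, which had about 6 times its counts, and its value is therefore uncertain. Porcn was at 98.7 ± 13.002 CPM in wild type and 121 ± 25.6 in homozygotes, and overlapped.

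Both kainate auxiliary subunits were tested and neither passed. Neto1 was at 17.7 ± 4.41 CPM in wild type, 17.5 ± 3.82 among heterozygotes and 17.2 ± 2.65 among homozygotes (SD, n = 4). Neto2 was at 11.3, 31.5, 21.8 and 15.0 CPM in wild type, 1.77, 11.6, 14.4 and 14.2 among heterozygotes and 1.16, 10.4, 16.5 and 16.8 among homozygotes. The values of 1.77 and 1.16 CPM came from the libraries in which Grik3 was nearly absent.

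Among 13 clustering, scaffold and trafficking genes, 8 had an estimate below 0 in homozygotes against wild type, with a median of -0.11. Nsf, the ATPase that binds GluA2 and drives membrane fusion, was at 1346, 1375, 1307 and 1348 CPM in wild type. Heterozygotes had 1254, 1125, 1202 and 1102 CPM, and homozygotes had 1091, 1249, 1010 and 1135 CPM. Every mutant library was below every wild type library. The log2 difference was -0.26 in homozygotes (SE 0.07, unadjusted p = 0.00262, edgeR adjusted p = 0.99) and -0.20 in heterozygotes (SE 0.07, unadjusted p = 0.0141, edgeR adjusted p = 0.999).

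Nptx2, a secreted pentraxin that clusters AMPA receptors, had 60, 56, 46 and 28 counts in wild type. Heterozygotes had 0, 0, 3 and 0 counts, and homozygotes had 0, 1, 41 and 0. Heterozygotes did not overlap with wild type, and homozygotes overlapped through replicate 3. Its edgeR adjusted p was 0.999 in heterozygotes against wild type and 0.997 in homozygotes against wild type. Gripap1, a carrier of AMPA receptors in endosomes, was at 124 ± 4.05 CPM in wild type and 135 ± 10.6 in homozygotes (SD, n = 4).

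Grid1, which encodes a delta receptor, was at 15.3 ± 3.47 CPM in wild type, 17.2 ± 2.40 among heterozygotes and 14.4 ± 2.58 among homozygotes (SD, n = 4), and its libraries overlapped.

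Among 8 other editing enzymes and regulators of ADAR2, 5 had an estimate above 0 and 3 below in homozygotes against wild type. Wwp2, a ubiquitin ligase that marks ADAR2 for degradation, was at 47.5, 44.3, 48.1 and 44.7 CPM in wild type. Heterozygotes had 39.0, 25.96, 41.9 and 42.1 CPM, and homozygotes had 29.7, 30.2, 30.6 and 29.4 CPM. All mutant libraries were below all wild type libraries, and the 4 homozygote values lay close together. Homozygotes differed from wild type by -0.62 on the log2 scale (SE 0.14, unadjusted p = 0.000776), and it did not pass adjustment over all genes (edgeR adjusted p = 0.99). Dhx15 was at 41.1 ± 3.14 CPM in wild type and 45.1 ± 3.85 in homozygotes (SD, n = 4), and overlapped.

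Of 17 other transcripts with known recoding by editing, 12 had an estimate below 0 in homozygotes against wild type, with a median of -0.09. Blcap was at 143 ± 13.6 CPM in wild type, 126 ± 11.9 among heterozygotes and 112 ± 15.0 among homozygotes (SD, n = 4), and homozygotes did not overlap with wild type. Its log2 difference was -0.36 (SE 0.11, edgeR adjusted p = 0.99). Cog3 was at 15.6 ± 1.42, 13.7 ± 1.202 and 19.7 ± 2.93 CPM in the same order, with homozygotes above both other genotypes without overlap.

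Across the lists, 6 of 58 genes (10.3%) did not overlap between homozygotes and wild type, 5 (8.62%) between heterozygotes and wild type and 2 (3.45%) between homozygotes and heterozygotes. Over all genes tested the shares were 3.41%, 3.24% and 2.03%. Those between homozygotes and wild type were Cnih2, Prrt1 and Cog3, which were higher, and Nsf, Wwp2 and Blcap, which were lower. Between heterozygotes and wild type Prrt1 was higher and Nptx2, Nsf, Wwp2 and Cyfip2 were lower. Between homozygotes and heterozygotes Cog3 was higher and Cpt1c lower. Cyfip2 and Cpt1c were outside the rule for named genes and are named after their values were seen. Because the lists were chosen with earlier results known, these shares do not test them against all genes.

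The genes that ran most closely with Gria2 over the 10 remaining libraries, among 9185 genes with a mean of at least 10 CPM, were Srek1 (Pearson r = 0.88), Elk1 (0.87) and Armc5 (0.87). With all 12 libraries these values became 0.82, 0.32 and -0.21. For Adarb1 they were Pkd2l2 (0.89), Ercc5 (0.88) and Creb1 (0.87), and 0.63, 0.92 and 0.59 over 12 libraries. Among the 10 genes themselves, the highest r was 0.68 between Grik4 and Adarb1, and 0.18 over all 12 libraries. The r between Gria2 and Adarb1 was -0.25 over 10 libraries and 0.55 over 12. The libraries pooled in these values belong to 3 genotypes, and the values are a description with no test. Picking the highest of 9185 values over 10 libraries can give a high r without any link between genes.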

How the data were processed

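RNA of laser-captured lumbar motor neurons was sequenced in 12 libraries, 4 for each of the 3 genotypes given by the labels. Per the labels' protocols, RNA was isolated with the PicoPure kit, amplified by SMART-seq from polyadenylated RNA and made into libraries with Nextera XT, which add no molecular identifiers and keep no strand. The authors deposited raw counts per gene. Per the submitters' processing notes, Trim Galore 0.4.3 and HISAT2 2.0.5 were used, with genome build GRCm38. How reads were assigned to genes, with which annotation and strand setting, is not given in the sources used here. Total counts ran from 60886825 to 83504446. The lowest chi-square per degree of freedom between any pair of libraries was 61, so none repeated another.

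Counts were filtered with filterByExpr and scaled by TMM, and a quasi-likelihood model with the 3 genotypes was fitted to all 16338 genes in edgeR 4.0.16 (R 4.3.3). P-values are two-sided with Benjamini-Hochberg adjustment and a threshold of 0.05. The fit was tested on simulated data. The Gria2 share was compared by exact permutation of libraries in SciPy 1.17.1. CPM were divided by GENCODE M21 exon lengths for levels between genes. Alternatives were DESeq2 1.42.0, limma 3.58.1 (voom with quality weights), other scalings and filters, the replicate number as a block, the 8 libraries of a comparison alone, and libraries left out.

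The genes, the lists and the 2 libraries treated apart were chosen with earlier results of these data known. All 10 genes and Tardbp are named, with the genes called in each list, up to 3 genes per list by the smallest p in homozygotes against wild type, and the 3 genes most like Gria2 and Adarb1 by Pearson r of log2 CPM (prior count 2). Epb41l1, Frrs1l, Shisa8 and Syndig1 were listed and not analysed here. Some genes that this rule names are not reported here.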

Additional observations from a re-analysis of the deposited data

Results flagged for a closer look

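Within each group of 4 libraries, 33 sets of values were screened for a library whose gap to its nearest neighbour was large against the range of the group. Chance flags about 1 in 20 such groups, and 4 were flagged. Gria4 was at 182 CPM in wild type replicate 2, against 169.8 to 171 in the other wild type libraries. The Gria2 share of AMPA receptor counts was 29.4% in the same library, against 33.9% to 34.7% in the others. Gria2 was at 112 CPM in heterozygote replicate 1, against 144 to 149 in the other heterozygote libraries. Grik3 was at 0.0145 CPM in homozygote replicate 1, against 4.46 to 4.79 in the other homozygote libraries. Heterozygote replicate 1 and homozygote replicate 1 are the libraries with few interneuron transcripts.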

How the results depend on the processing

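None of the 10 genes passed an adjusted p of 0.05 under any alternative run. Over all genes, the count called between homozygotes and wild type was 1, and it became 13 in DESeq2, 6 with the replicate block, 0 with only the 8 libraries compared, 0 without the 2 libraries poor in interneuron transcripts and 0 to 1 with a library left out. DESeq2 called 13 genes between heterozygotes and wild type and 8 between homozygotes and heterozygotes, where edgeR called 0. Over 12 pairs of same-numbered libraries, r of their deviations ran from -0.05 to 0.45 with a median of 0.07. The 3 pairs over 0.1 were those among the replicate 1 libraries, the highest between the 2 libraries poor in interneuron transcripts, and 4 of 12 libraries were closest to their own number, so the numbers as a whole were not taken as pairing. With the replicate block the log2 differences between homozygotes and heterozygotes became 0.023 for Grik1 and 0.00365 for Adarb1, and the share of Gria2 differed by -1.205 points between homozygotes and wild type (exact permutation p = 0.75).

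Some estimates changed sign, and the cause was not tested. Many were near 0, but Grik1 at -0.41 and Grik3 at -0.25 between homozygotes and heterozygotes were not. Between homozygotes and wild type the changes were in Grik4 in voom (-0.0049), Gria4 with the stricter filter (0.0017) and, without the 2 libraries, Gria2 (0.0402), Grik2 (-0.0284) and Grik4 (-0.0519). Between heterozygotes and wild type they were Gria4 in voom (-0.0063) and, without the 2 libraries, Gria3 (-0.0217), Gria4 (-0.00284) and Grik5 (0.12). The Gria2 share then differed from wild type by 1.07 points in homozygotes and 0.0651 in heterozygotes. With single libraries left out, homozygotes against wild type ran from -0.13 to 0.0434 for Gria2, -0.10 to 0.0638 for Gria4, -0.10 to 0.27 for Grik2 and -0.0654 to 0.17 for Grik4. Heterozygotes against wild type ran from -0.31 to 0.0534 for Grik2, -0.25 to 0.12 for Grik5, -0.0254 to 0.26 for Gria3 and -0.00589 to 0.12 for Gria4. Homozygotes against heterozygotes ran from -0.00906 to 0.18 for Gria2, -0.0574 to 0.17 for Gria3, -0.14 to 0.0281 for Gria4, -0.11 to 0.11 for Adarb1, -0.83 to 0.0708 for Grik1 and -0.67 to 0.42 for Grik3. The Gria2 share ran from -3.55 to 1.07 points, -3.63 to 0.0651 points and -1.32 to 3.30 points in the 3 comparisons.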
